A study of Mus musculus with 12 samples.

Results

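The genes described here encode effector cytokines that T cells release after their antigen receptor is engaged: IFN-γ (Ifng), TNF (Tnf), lymphotoxin alpha (Lta) and beta (Ltb), LIF (Lif), oncostatin M (Osm), GM-CSF (Csf2) and IL-3 (Il3). They were chosen by name, as 8 symbols, and 7 of the 14323 symbols of the count table were members. Csf2 was not analysed here. RNA was measured in naïve CD8+ T cells, sorted from spleens of 3 wild type mice as positive for TCRβ, CD8 and CD62L and negative for CD44, and held for 6 h in wells of 100000 cells each. Wells were coated with 2.5 µg/ml anti-CD3, which engages the T cell receptor complex, or with its isotype control. The same wells carried either 2.5 µg/ml of 2C7, the anti-LAIR-1 clone, or its own isotype. LAIR-1 is an inhibitory receptor for collagen. The 4 groups were thus unstimulated cells with isotype, unstimulated cells with anti-LAIR-1, anti-CD3 with isotype, and anti-CD3 with anti-LAIR-1. Each held 3 libraries, 1 for each mouse, and all groups shared the same genotype, sort and culture time. The sorted population was naïve by surface markers, a time of 6 h covers only early transcription, and the antibodies stood in for antigen and collagen. The study used adult mice of the C57BL/6N background; the exact age and the sex of these 3 are not given in the sources used here.

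IFN-γ acts through its receptor on JAK kinases and raises antigen presentation and guanylate-binding proteins in its target cells. TNF, lymphotoxin alpha and lymphotoxin beta belong to the TNF superfamily; lymphotoxin alpha is secreted as a homotrimer or joins lymphotoxin beta at the cell surface, and TNF signals largely through NF-κB. LIF and oncostatin M are IL-6 family cytokines that share the gp130 receptor chain and act through STAT3, while IL-3 and GM-CSF share a common beta receptor chain and act on myeloid cells. Many cytokine mRNAs are short-lived and carry AU-rich elements, repeats of the pentamer ATTTA in the 3′ UTR, which proteins such as those of the Zfp36 family bind.

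By position, 7 of the 8 genes sit in clusters in the mm10 genome. Ltb (chr17:35194439-35196320, plus strand), Tnf (chr17:35199381-35202007, minus strand) and Lta (chr17:35203165-35205351, minus strand) are neighbours, with gaps of 3060 and 1157 bp. Osm (chr11:4236420-4241026, plus strand) and Lif (chr11:4257557-4272514, plus strand) lie 16.5 kb apart, and Csf2 and Il3 (chr11:54265303-54267277, minus strand) lie 15.6 kb apart. Ifng (chr10:118441046-118445892, plus strand) stands alone. Its exons overlap those of Gm49751, an annotated gene of the same strand, so that reads there cannot be told apart.

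The libraries read the 3′ ends of transcripts, so reads lie in or near the 3′ UTR. Where they fell in each mRNA was not examined. In 1 transcript of each gene (GENCODE M21), ATTTA occurred 8 times in the 764 bases of the Tnf 3′ UTR, 7 times in the 3180 bases of Lif, 6 times in the 631 bases of Ifng and 6 times in the 1017 bases of Osm. Lta had 3 in 572 bases, Il3 had 1 in 101 bases, and Ltb had 0 in 156 bases. Over 12460 mouse genes the median was 1 and 34.8% had none; 9.06% had as many as Tnf. The densest 30-base windows are shown for the members that rose with anti-CD3 and isotype in the edgeR test. Ltb, which fell, has no such pentamer. Osm, whose mean was lower with anti-CD3, has 6, as many as Ifng. The 3 of Lta are reached by 33.8% of genes. A link between pentamers and the response to anti-CD3 was not tested. They are written 5′ to 3′ on the strand of the gene, with each ATTTA in capitals. Tnf and Ifng hold 5 and 3 pentamers in their windows, Lif holds 3 and Lta holds 2. The windows lie at chr17:35199679-35199708 (Tnf), chr10:118445330-118445359 (Ifng), chr11:4272414-4272443 (Lif) and chr17:35203408-35203437 (Lta).
Tnf: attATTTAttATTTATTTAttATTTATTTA
Ifng: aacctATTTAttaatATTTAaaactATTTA
Lif: ATTTAttcaatgtcatATTTAaaatATTTA
Lta: tATTTAtggagagaaaagttaagttATTTA

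Promoters are shown for the 3 members that were lower with anti-LAIR-1 in stimulated cells (Ifng, Lif and Lta), for Tnf, the neighbour of Lta, and for Ltb, which fell with anti-CD3 both with isotype and with anti-LAIR-1. RefSeq (GRCm38.p6) gave 300 bases around the start of 7 members; Osm had no entry. Both strands were searched for letters that T cell activation factors bind. The NFAT core was taken as GGAAA, which 61.3% of 32851 promoters hold. AP-1 was taken as TGANTCA, held by 7.81%, and the TATA box as TATAAA, held by 13.6%. NF-κB was taken as GGGANTTTC, held by 1.11%; it can overlap a match to the NFAT core on the other strand. The CRE was taken as TGACGTCA, held by 1.79%. Capitals mark the matches. A match is a run of letters and not a shown binding site.
Ifng (chr10:118440796-118441095, plus strand): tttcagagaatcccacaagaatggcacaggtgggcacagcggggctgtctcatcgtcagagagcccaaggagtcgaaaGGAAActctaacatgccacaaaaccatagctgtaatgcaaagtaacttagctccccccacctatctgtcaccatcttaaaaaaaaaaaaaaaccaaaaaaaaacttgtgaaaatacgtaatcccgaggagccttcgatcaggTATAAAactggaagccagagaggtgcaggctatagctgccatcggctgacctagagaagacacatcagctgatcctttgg
Lif (chr11:4257318-4257617, plus strand): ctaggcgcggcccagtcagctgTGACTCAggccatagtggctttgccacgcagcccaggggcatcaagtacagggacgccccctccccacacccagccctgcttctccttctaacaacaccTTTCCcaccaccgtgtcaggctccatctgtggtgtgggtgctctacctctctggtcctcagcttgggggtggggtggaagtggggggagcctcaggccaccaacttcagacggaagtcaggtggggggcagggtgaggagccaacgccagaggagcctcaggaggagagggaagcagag
Lta (chr17:35205302-35205601, minus strand): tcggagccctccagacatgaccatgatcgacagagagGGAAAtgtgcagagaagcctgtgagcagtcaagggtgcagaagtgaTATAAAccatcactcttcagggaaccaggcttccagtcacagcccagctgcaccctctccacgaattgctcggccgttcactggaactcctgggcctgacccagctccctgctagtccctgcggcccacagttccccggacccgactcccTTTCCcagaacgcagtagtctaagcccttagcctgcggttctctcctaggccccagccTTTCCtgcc
Tnf (chr17:35201958-35202257, minus strand): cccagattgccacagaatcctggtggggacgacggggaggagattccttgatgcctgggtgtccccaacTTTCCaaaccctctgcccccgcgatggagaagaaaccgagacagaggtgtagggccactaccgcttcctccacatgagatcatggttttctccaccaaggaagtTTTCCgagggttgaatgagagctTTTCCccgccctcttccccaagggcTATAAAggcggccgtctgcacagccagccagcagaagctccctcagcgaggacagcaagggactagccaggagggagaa
Ltb (chr17:35194257-35194556, plus strand): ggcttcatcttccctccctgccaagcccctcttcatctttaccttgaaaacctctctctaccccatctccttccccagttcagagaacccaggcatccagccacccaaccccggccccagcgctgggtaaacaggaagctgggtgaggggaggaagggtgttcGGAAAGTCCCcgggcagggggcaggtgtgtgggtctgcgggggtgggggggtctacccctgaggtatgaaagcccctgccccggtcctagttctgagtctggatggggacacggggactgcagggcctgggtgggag

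The NFAT core letters occurred 3 times in the Tnf and Lta windows, as in 9.42% of promoters with at least that many, and 1 time in those of Ifng, Lif, Ltb and Il3. Ifng, Tnf and Lta each had 1 TATA match, Lif had the only AP-1 match of the 7 windows searched, and Ltb had the only NF-κB match. None of the 7 held the CRE letters.

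Depth ranged from 1781218 to 7725545 counts per library, so that 3 counts, taken as the floor of detection, were worth 0.407 to 1.58 CPM (counts scaled to library size, here with TMM factors over the 12 libraries). Floors and the intervals named as counting intervals cover counting error only. The intervals of edgeR fits also take in the spread between libraries. The sort was checked against its markers: all 9 of the 12 listed CD8+ T cell genes with a row were present in every group, with summed levels of 4461 to 5063 CPM over the 6 unstimulated libraries, 2621 to 2814 CPM with anti-CD3 and isotype, and 3084 to 3397 CPM with anti-CD3 and anti-LAIR-1. The summed level of 7 naïve cell genes was 5789 to 7262 CPM over the 6 unstimulated libraries, 532 to 623 CPM with anti-CD3 and isotype, and 823 to 1044 CPM with anti-CD3 and anti-LAIR-1. Lists for CD4+ T cells, B cells and NK or γδ T cells summed to at most 11.0, 9.99 and 1.06 CPM in any library. Rows were present for 5 of 5, 6 of 10 and 2 of 10 of their genes. The γδ T cell genes Trdc, Trgc1, Trgc2 and Sox13 had no row, so the low sum cannot show that such cells were absent. Myeloid genes summed to 37.2 to 142 CPM, nearly all from Ctss, while Cd14 and Tyrobp were at or near 0, and mast cell and basophil genes summed to 0.307 to 3.86 CPM. Platelet, erythroid and stromal genes summed to 8.58 to 164 CPM, nearly all from Pecam1. Of the myeloid, the mast cell and basophil, and this last list, 8 of 12, 3 of 8 and 6 of 9 genes had a row. Lair1 had 0 to 7 counts in each library, too few to compare.

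IFN-γ, the main macrophage-activating cytokine of T cells, was at or near 0 counts without anti-CD3. Ifng had 0 counts in each of the 3 unstimulated libraries with isotype and 1, 0 and 1 counts in mice 1, 2 and 3 with anti-LAIR-1 alone. With anti-CD3 and isotype its level was 39.3, 38.6 and 38.7 CPM in mice 1, 2 and 3, from 128, 180 and 239 counts. Where LAIR-1 was ligated too, stimulated cells had 16.9, 15.3 and 9.73 CPM, from 125, 90 and 46 counts. The stimulated groups stood far above the unstimulated ones, and the highest library with anti-LAIR-1 was below the lowest with isotype. The rise with anti-CD3 and isotype was at least 96.2-fold, against a floor of 3 counts over the unstimulated group (edgeR quasi-likelihood test, adjusted p = 9.1e-13). With anti-LAIR-1 present the ratio of stimulated to unstimulated was 81.0, with a 95% counting interval of 22.2 to 672 since it rests on 2 unstimulated counts (adjusted p = 3.4e-09 by edgeR).

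In stimulated cells, anti-LAIR-1 lowered the mean level of Ifng from 38.9 ± 0.398 to 13.99 ± 3.78 CPM (SD, n = 3 mice), a 2.78-fold difference. On the log2 scale the change was -1.44 (SE 0.17, 95% interval -1.79 to -1.09, edgeR adjusted p = 4.1e-05). It was -1.19, -1.31 and -1.94 in mice 1, 2 and 3, a fall in each of the 3. In bulk RNA, fewer cells that express a gene and less RNA in each cell cannot be told apart, which holds for this and every other member.

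TNF, the founding member of its superfamily, was already detected at rest. Tnf was at 2.99, 5.95 and 4.73 CPM in unstimulated cells with isotype and at 4.41, 7.90 and 6.43 CPM with anti-LAIR-1 alone. Anti-CD3 brought it to 166, 178 and 135 CPM with isotype and to 121, 144 and 138 CPM with anti-LAIR-1. The 2 stimulated groups overlapped, as did the 2 unstimulated groups. The rise with anti-CD3 was 35.0-fold with isotype (log2 5.08, SE 0.20, edgeR adjusted p = 3.8e-16) and 21.5-fold with anti-LAIR-1 (log2 4.40, SE 0.16, edgeR adjusted p = 1.6e-14). Between the stimulated groups the means were 160 ± 22.01 and 134 ± 11.7 CPM (SD, n = 3), and the difference of -0.24 on the log2 scale (SE 0.10, 95% interval -0.45 to -0.03) did not pass the test across all genes (edgeR adjusted p = 0.203). The per-mouse values were -0.45 and -0.30 in mice 1 and 2 and 0.03 in mouse 3. Without the isotype library of mouse 3 the difference was -0.36 with an edgeR adjusted p of 0.0431.

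Lymphotoxin alpha, encoded next to TNF, followed it on activation. Lta was at 1.99, 2.38 and 2.10 CPM in unstimulated cells with isotype and at 2.76, 4.74 and 4.82 CPM with anti-LAIR-1 alone. With anti-CD3 it reached 59.6, 74.2 and 59.7 CPM with isotype and 49.6, 46.4 and 32.1 CPM with anti-LAIR-1. None of the 4 groups overlapped another, and their order was anti-CD3 with isotype, anti-CD3 with anti-LAIR-1, anti-LAIR-1 alone and isotype alone. The rise with anti-CD3 was 29.9-fold with isotype (log2 4.81, SE 0.25, edgeR adjusted p = 3.1e-14) and 10.4-fold with anti-LAIR-1 (log2 3.36, SE 0.23, edgeR adjusted p = 1.6e-10).

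Among stimulated cells, anti-LAIR-1 lowered Lta 1.51-fold, from a mean of 64.5 ± 8.38 to 42.7 ± 9.29 CPM (SD, n = 3; log2 -0.58, SE 0.14, edgeR adjusted p = 0.0206). The fall was seen in the 3 mice (-0.26, -0.67 and -0.88). It did not pass without the isotype library of mouse 2 (-0.47, edgeR adjusted p = 0.118) or without the anti-LAIR-1 library of mouse 3 (-0.43, edgeR adjusted p = 0.0625). In unstimulated cells Lta was too low for the test, with 16 counts in all with isotype and 46 with anti-LAIR-1.

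Lymphotoxin beta, which anchors lymphotoxin alpha to the membrane, went the other way. Ltb was at 229, 225 and 221 CPM in unstimulated cells with isotype and at 241, 245 and 236 CPM with anti-LAIR-1 alone. With anti-CD3 it was at 133, 129 and 108 CPM with isotype and at 139, 155 and 124 CPM with anti-LAIR-1. Stimulated libraries were all below unstimulated ones, while the stimulated groups overlapped each other. The fall with anti-CD3 was 1.83-fold with isotype (log2 -0.95, SE 0.10, edgeR adjusted p = 1.8e-08) and 1.73-fold with anti-LAIR-1 (log2 -0.80, SE 0.09, edgeR adjusted p = 1.1e-07). With anti-LAIR-1, stimulated cells had 0.19 more on the log2 scale (SE 0.10, 95% interval -0.02 to 0.40, edgeR adjusted p = 0.304), with higher values in the 3 mice that did not pass the test. Unstimulated libraries with anti-LAIR-1 were each above those with isotype, but by 0.08 only (SE 0.09, edgeR adjusted p = 0.997).

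LIF, a cytokine of the IL-6 family, had 0 counts in all 6 unstimulated libraries. Lif was at 5.84, 4.07 and 9.88 CPM with anti-CD3 and isotype, from 19, 19 and 61 counts. Ligation of LAIR-1 beside anti-CD3 gave 1.08, 0.340 and 1.69 CPM, from 8, 2 and 8 counts. The stimulated groups did not overlap, and the anti-LAIR-1 library of mouse 2 was under the floor of 3 counts. Anti-CD3 raised Lif at least 17.4-fold with isotype, against 3 counts over the unstimulated group (edgeR adjusted p = 2.8e-06); with anti-LAIR-1 the stimulated level was at least 3.72-fold higher, and Lif did not pass the filter on low counts there (edgeR adjusted p = 0.00464 with no filter). With anti-LAIR-1 the level in stimulated cells was 6.35-fold lower, with means of 6.60 ± 2.97 and 1.04 ± 0.677 CPM (SD, n = 3; log2 -2.72, SE 0.46, 95% interval -3.70 to -1.74, edgeR adjusted p = 0.00171). Lif met the filter on low counts in this comparison only through the isotype group, where it is higher. The mice fell by 2.02, 2.48 and 2.26 on the log2 scale of CPM with a prior count of 2, which shrinks low values.

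Oncostatin M, the neighbour of LIF, was detected at low levels in all 4 groups. Osm was at 4.65, 5.15 and 2.10 CPM in unstimulated cells with isotype, and at 3.31, 2.11 and 4.55 CPM with anti-LAIR-1 alone. With anti-CD3 it was at 3.07, 2.57 and 3.24 CPM with isotype and at 2.17, 1.53 and 1.06 CPM with anti-LAIR-1. The stimulated groups did not overlap, while the unstimulated groups overlapped each other. The difference with anti-LAIR-1 in stimulated cells was -0.84 on the log2 scale (SE 0.41, 95% interval -1.70 to 0.02) and did not pass the test (edgeR adjusted p = 0.275), with lower values in 3 of 3 mice. Osm rested on 42 and 30 counts in these groups. With anti-CD3 under anti-LAIR-1 its mean was 2.10-fold lower than in unstimulated cells, with lower values in 3 of 3 mice (-0.52, -0.36 and -1.71), but Osm did not pass the filter on low counts there. Among the alternatives that tested it, Osm passed in the fit of all 12 libraries (-1.01, edgeR adjusted p = 0.0445). It also passed without the unstimulated anti-LAIR-1 library of mouse 2 (-1.26, 0.0270) and without the stimulated anti-LAIR-1 library of mouse 1 (-1.32, 0.0404). It did not with no filter (-0.93, 0.104) or by DESeq2 (-1.004, 0.184). Nor did it pass without the unstimulated anti-LAIR-1 library of mouse 1 (-1.02, edgeR adjusted p = 0.0955) or mouse 3 (-0.72, 0.232). The same held without the stimulated anti-LAIR-1 library of mouse 2 (-0.95, 0.117) or mouse 3 (-0.81, 0.132). With isotype the change with anti-CD3 was lower in 2 of 3 mice.

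IL-3, a growth factor for myeloid and mast cells, was at the limit of detection. Il3 had 0 counts in the 6 unstimulated libraries, 2, 4 and 5 counts with anti-CD3 and isotype, and 2, 1 and 0 counts with anti-CD3 and anti-LAIR-1. With anti-CD3 and isotype it was at least 1.94-fold higher than in unstimulated cells, against a floor of 3 counts over the group. The ratio of anti-LAIR-1 to isotype in stimulated cells was 0.214, from 3 against 11 counts, with a 95% counting interval of 0.0383 to 0.809. Il3 never passed the filter on low counts and was tested only in alternatives without it, where it did not pass. With no filter, the log2 change with anti-CD3 and isotype was 4.54 (edgeR adjusted p = 0.0544). DESeq2 gave 3.32 there (DESeq2 adjusted p = 0.170). Under anti-LAIR-1 the unfiltered change with anti-CD3 was 2.90 (edgeR adjusted p = 0.317). Between the stimulated groups it was -2.09 (edgeR adjusted p = 0.407).

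**Figure D1:**
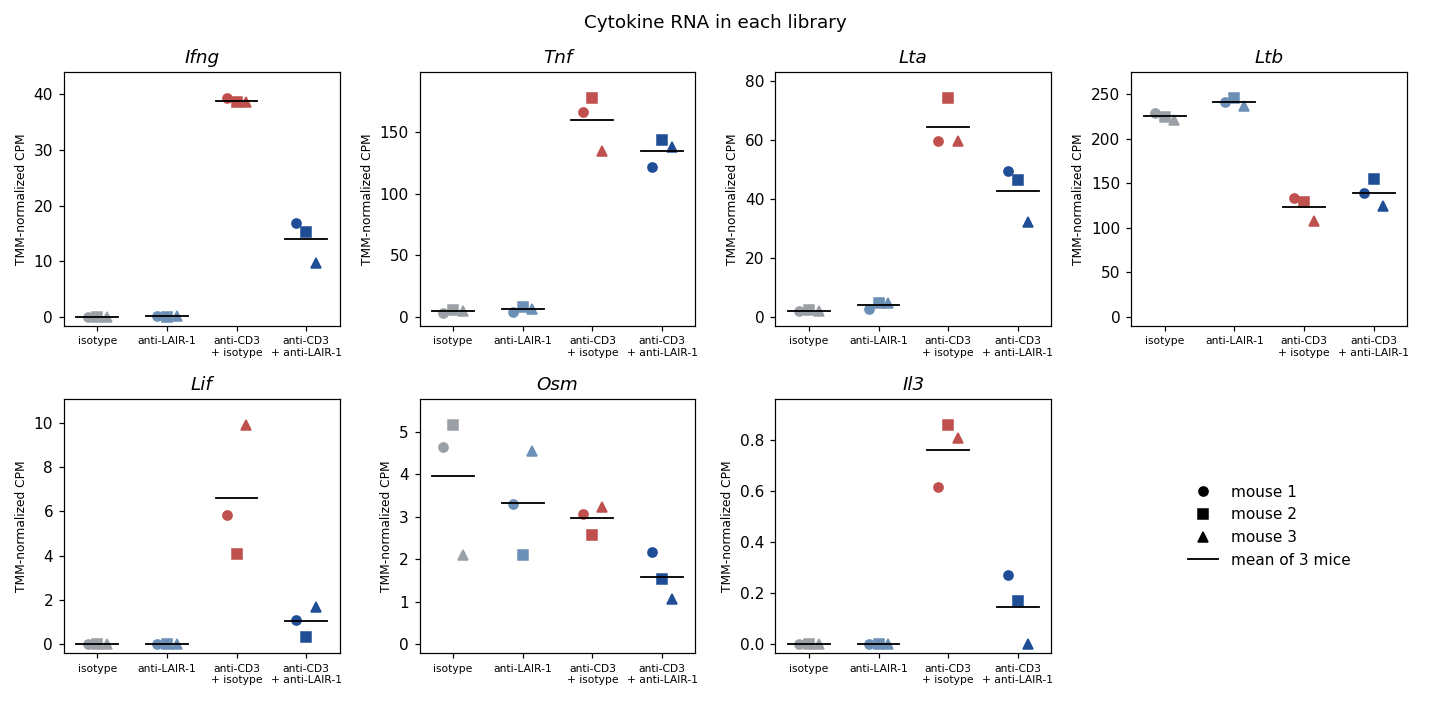
TMM-normalized CPM of each cytokine gene (vertical axis, linear and different for each gene) in the 4 groups (horizontal axis), with 1 marker for each mouse and a line at the mean of 3 mice. Ifng, Tnf, Lta, Lif and Il3 are near 0 without anti-CD3 and higher with it, Ltb is lower with anti-CD3, and Ifng and Lif with anti-CD3 and anti-LAIR-1 lie below all libraries with anti-CD3 and isotype.

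Set against all genes, the response to anti-CD3 was broad. With isotype, 4 of the 5 members tested rose and 1 fell, where 35.6% of 8454 protein-coding genes rose and 35.8% fell. With anti-LAIR-1, 3 of the 4 members tested rose and 1 fell, where 36.8% of 8736 genes rose and 36.1% fell. Of the 6 members tested for the effect of anti-LAIR-1 in stimulated cells, 3 were lower and 0 higher, where 1.88% of 8552 genes were lower and 3.92% were higher by the same edgeR test. DESeq2 called Ifng and Lta in this comparison and gave Lif no adjusted p. The median change was -0.71 for the 6 members and 0.00 for all genes tested. These members passed a filter that their stimulated level could meet on its own, so that the counts describe them and do not test them as a group. Between the stimulated groups, Lif met the filter only through the isotype group, where its level is higher.

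Without anti-CD3, 0 of the 3 members tested (Tnf, Ltb and Osm) differed between anti-LAIR-1 and isotype by edgeR, where 0% of 8513 genes were called. DESeq2 called 0 genes there too, and 365 genes (4.29%) had an unadjusted edgeR p under 0.05. The differences were 0.46 (SE 0.40, 95% interval -0.36 to 1.28) for Tnf and -0.32 (SE 0.45, 95% interval -1.26 to 0.62) for Osm on the log2 scale. Whether the effect of anti-LAIR-1 differed with anti-CD3 was tested as an interaction over the 12 libraries, and 0 of the 6 members passed (2.08% of 8929 genes did, and 12.2% had an unadjusted edgeR p under 0.05). DESeq2 also called 0 members. The interaction was -1.49 for Lta (SE 0.45, edgeR adjusted p = 0.0883), -0.71 for Tnf (SE 0.35, edgeR adjusted p = 0.411), 0.12 for Ltb (SE 0.13, edgeR adjusted p = 0.800) and -0.51 for Osm (SE 0.62, edgeR adjusted p = 0.817). For Ifng it was -4.26 (SE 2.11, edgeR adjusted p = 0.425) and rests on 0 and 2 unstimulated counts, and for Lif it could not be estimated since all unstimulated libraries were at 0.

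**Figure D2:**
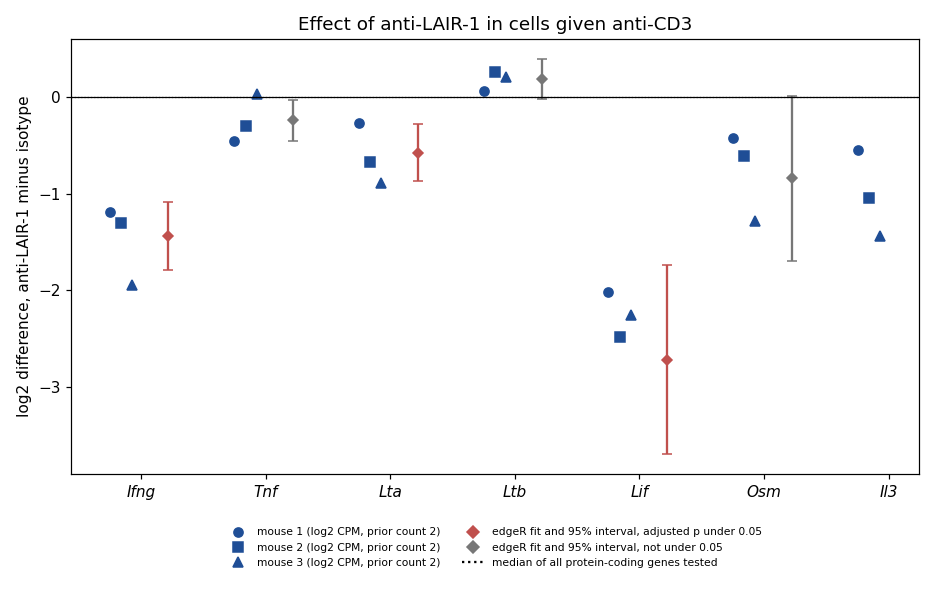
Log2 value with anti-LAIR-1 minus that with isotype among stimulated cells (vertical axis) for each cytokine gene (horizontal axis). Blue markers are the 3 mice, diamonds with bars are edgeR fits with 95% intervals (red where the adjusted p was under 0.05), Il3 has no fit, and the dotted line at 0.00 is the median of all genes tested; Lif and Ifng lie lowest, at -2.72 and -1.44, and Ltb lies at 0.19.

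The members were also set against each other. Ratios of reads within a library do not depend on how libraries are scaled, but they are ratios of 3′ reads and not of molecules. In stimulated cells there were 23.7, 21.7 and 28.7 Ifng reads for 100 Tnf reads with isotype in mice 1, 2 and 3, and 13.97, 10.6 and 7.04 with anti-LAIR-1. For 100 Lta reads there were 66.0, 52.0 and 64.8 Ifng reads with isotype and 34.2, 33.0 and 30.3 with anti-LAIR-1. Both ratios were lower in every library with anti-LAIR-1 than in any with isotype, with log2 differences of -1.27 and -0.90.

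Lif fell from 3.51, 2.29 and 7.31 reads for 100 Tnf reads to 0.894, 0.236 and 1.23, with no overlap. Ltb had 80.0, 72.6 and 79.9 reads for 100 Tnf reads with isotype and 115, 108 and 90.0 with anti-LAIR-1, a log2 difference of 0.42. Lta against Tnf overlapped between groups, at 35.9, 41.8 and 44.2 reads for 100 Tnf reads with isotype and 40.9, 32.3 and 23.3 with anti-LAIR-1. The 6 pairs were chosen after the values had been seen. In each of the 5 pairs without overlap the two-sided exact permutation test gave p = 0.1, the smallest that 3 against 3 libraries allow (0.12 after Benjamini-Hochberg adjustment over the 6 pairs), and Lta against Tnf gave an exact p of 0.2.

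**Figure D3:**
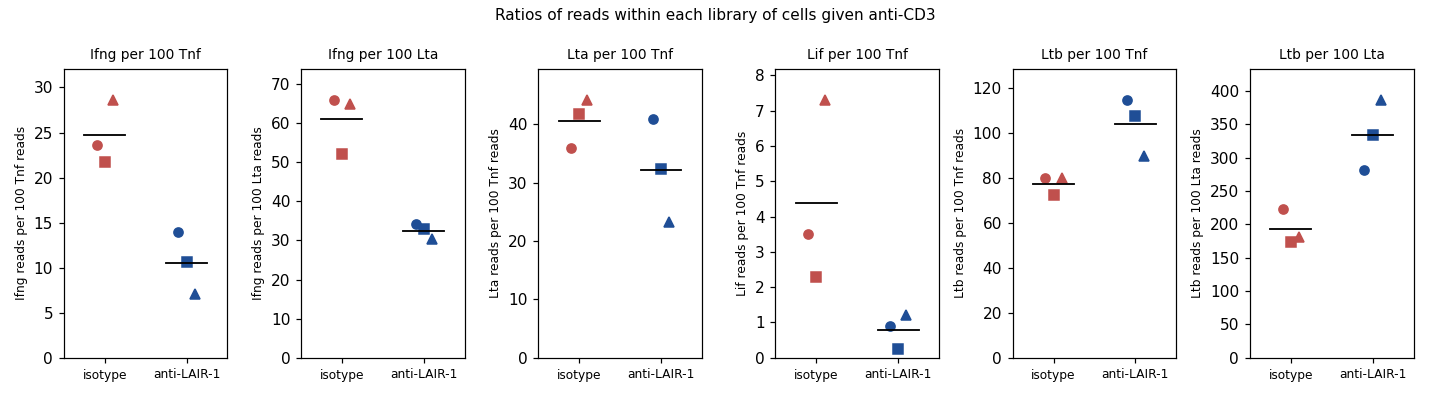
Reads of a first cytokine gene for 100 reads of a second (vertical axis, linear from 0) within each library of stimulated cells, by isotype and anti-LAIR-1 (horizontal axis), with 1 marker for each mouse and a line at the mean. Ifng against Tnf is 21.7 to 28.7 with isotype and 7.04 to 13.97 with anti-LAIR-1, and only Lta against Tnf overlaps between the groups.

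Other secreted factors were compared in the same stimulated libraries. Beside the counts of this and the following lists with anti-LAIR-1 stand the shares over all 8552 genes, 3.92% higher and 1.88% lower. Of 4 other cytokine genes tested, Il2, the T cell growth factor, was lower with anti-LAIR-1 (16.9 ± 1.37 against 8.02 ± 1.46 CPM, SD, n = 3; log2 -1.07, edgeR adjusted p = 0.00332). Il16, a chemoattractant precursor, was higher (7.92 ± 0.382 against 16.9 ± 2.50 CPM; log2 1.08, edgeR adjusted p = 0.00307). Of 5 other TNF superfamily ligands tested, 1 was lower, Tnfsf11, which encodes RANKL (log2 -0.77, edgeR adjusted p = 0.0272). It was lost without the isotype library of mouse 3 or the anti-LAIR-1 library of mouse 2, where 0 were called, and by DESeq2. Of 6 chemokine genes tested, 4 were lower and 0 higher, among them Ccl3 (log2 -0.86), Ccl4 (-0.60) and Ccl9 (-0.996), and the count of 4 was the same under all 12 alternatives.

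Receptor chains decide which cells respond to these cytokines. Of 7 chains tested in stimulated cells, 1 was higher with anti-LAIR-1, the ligand-binding IFN-γ receptor chain Ifngr1, at 55.8 ± 11.1 CPM against 35.2 ± 9.05 CPM (SD, n = 3; log2 0.67, SE 0.17, edgeR adjusted p = 0.0236). In unstimulated cells with isotype its level was 456 ± 27.0 CPM, so that it was among the genes that fell with anti-CD3. The call was lost without the isotype library of mouse 2, where 0 receptor chains passed.

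Genes that IFN-γ is known to induce did not move with Ifng in one direction. Of 28 tested in stimulated cells, 6 were higher with anti-LAIR-1 and 2 were lower, with a median of 0.31 on the log2 scale against 0.00 for all genes. The GTPase genes Gbp8 (0.95) and Irgm2 (0.66) were higher. Gbp5, a guanylate-binding protein that was at 0 counts in unstimulated cells with isotype, was lower (5.06 ± 1.74 against 1.85 ± 0.321 CPM, SD, n = 3; log2 -1.36, edgeR adjusted p = 0.0375). The number called, 8, ranged from 2 to 12 over 12 alternatives, with 12 when no filter on low counts was used. Without the isotype library of mouse 1 or 2 it was 5 or 2, and without the anti-LAIR-1 library of mouse 2 or 3 it was 4 or 5.

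Of 23 genes of the TNF and NF-κB response tested, 1 was higher, Tnip1 (0.54), and 2 were lower, Nfkb1 (-0.28) and Nfkbia (-0.26), with a median of -0.10. Leaving out any single stimulated library left 0 or 1 of these calls. Of 17 STAT3 and STAT5 target genes tested, 0 were higher and 5 lower, with a median of -0.15. The list includes Osm, itself a member, which enters the median but is not among the calls. Cish, a feedback inhibitor of cytokine receptors, was at 85.6 ± 15.0 CPM with isotype and 25.2 ± 2.26 CPM with anti-LAIR-1 (SD, n = 3; log2 -1.77, edgeR adjusted p = 9.5e-07). The kinase gene Pim1 (-0.87) and the survival gene Bcl2l1 (-0.87) were also lower, and 5 to 7 genes of the list were called under all 12 alternatives.

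Genes for proteins that act on AU-rich mRNAs were read beside the pentamers shown above. Of 14 mRNA decay genes tested in stimulated cells, 2 were higher with anti-LAIR-1 and 0 lower, with a median of 0.00. They were Zfp36, which encodes tristetraprolin (93.0 ± 8.93 against 126 ± 10.9 CPM, SD, n = 3; log2 0.45, edgeR adjusted p = 0.00788), and its relative Zfp36l2 (75.4 ± 3.86 against 99.8 ± 3.01 CPM; log2 0.41, edgeR adjusted p = 0.00847). Without the anti-LAIR-1 library of mouse 2 only 1 was called. Of the members with the most pentamers, Lif (7) changed by -2.72 with anti-LAIR-1, Ifng (6) by -1.44, Osm (6) by -0.84 and Tnf (8) by -0.24, of which those of Osm and Tnf did not pass. Lta (3) changed by -0.58, which passed, and Ltb (0) by 0.19, which did not. The counts are not scaled to the length of the 3′ UTR, which is 3180 bases for Lif. A part of mRNA decay in these changes was not tested. Among 29 transcription factor genes tested, 2 were lower, Irf8 (-0.54) and Nfkb1 (-0.28), and neither call was kept without the isotype library of mouse 2 or without the anti-LAIR-1 library of mouse 2.

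**Figure D4:**
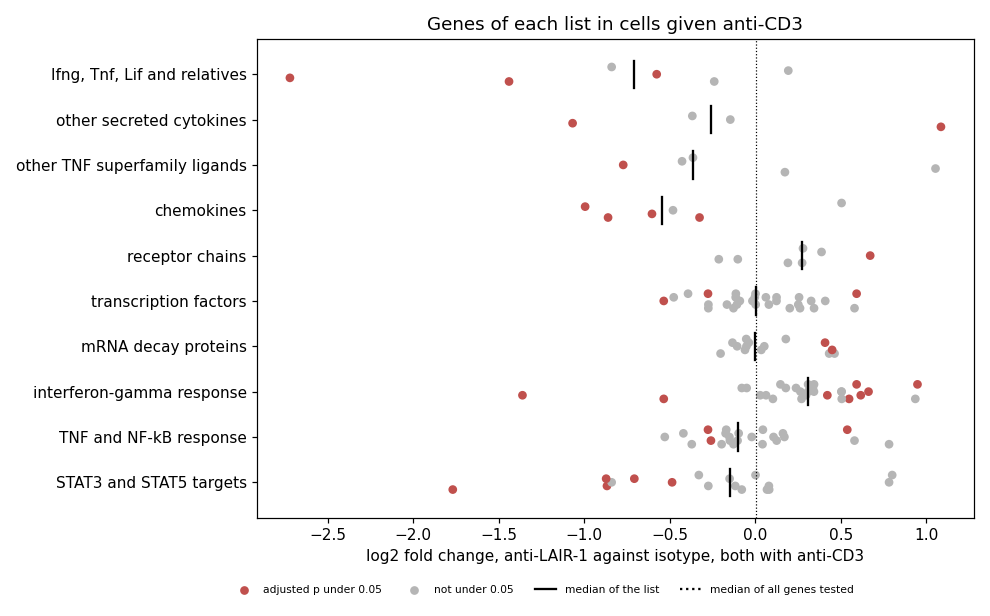
Log2 fold change between anti-LAIR-1 and isotype in stimulated cells (horizontal axis) for each tested gene of 10 lists (vertical axis), red where the edgeR adjusted p was under 0.05, with a bar at the median of each list. The cytokine genes have a median of -0.71, chemokines -0.54, interferon-γ response genes 0.31, and the dotted line marks 0.00, the median of all genes tested.

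Markers of cell state moved in the same comparison: with anti-LAIR-1, 6 of 7 naïve cell genes tested were higher in stimulated cells (median 0.95). Of 9 CD8+ T cell genes, 4 were higher and 1 lower (median 0.27), and of 8 memory and effector genes 0 were higher and 1 lower (median -0.38). The summed memory and effector level was 365 to 385 CPM with anti-CD3 and isotype and 272 to 310 CPM with anti-CD3 and anti-LAIR-1, against 152 to 174 CPM over the unstimulated libraries. Nkg7 differed most, with mean levels of 172 and 106 CPM in these stimulated groups and 43.1 CPM in unstimulated cells with isotype. Cd44 and Eomes were lower with anti-LAIR-1 by less. Il2rb (76.6 and 76.4 CPM) and Cxcr3 (26.6 and 25.8 CPM) hardly differed between stimulated groups, and Fasl was slightly higher (2.83 and 3.27 CPM). The part of these markers in the changes of the cytokine genes was not tested.

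Around the TNF cluster, the nearest other genes with a row were Lst1 and Nfkbil1. Lst1, 6.0 kb from Ltb, fell with anti-CD3 (log2 -3.27 with isotype and -2.25 with anti-LAIR-1; edgeR adjusted p = 1.0e-05 and 8.5e-05). Nfkbil1, 14.8 kb from Lta, had changes of -0.23 and -0.30 that did not pass (edgeR adjusted p = 0.660 and 0.434). Dyrk2, 409.7 kb from Ifng, changed with anti-CD3 by -0.10 with isotype (edgeR adjusted p = 0.782) and by -1.09 with anti-LAIR-1 (edgeR adjusted p = 0.000619).

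Genes whose levels most resembled each member were found by Pearson r of log2 CPM over the 12 libraries, among 8607 protein-coding genes. The 12 points fall into stimulated and unstimulated clusters and share their libraries, so r mostly follows the response to anti-CD3 and is given as a description. Closest to Ifng were Vcp (0.996), Eif2s2 (0.994) and Mki67ip (0.994), and closest to Tnf were Trim28 (0.997), Tmem167 (0.996) and Mtap (0.996). Closest to Lta were Tbx21, the gene of the T-bet transcription factor (0.995), Gpd2 (0.995) and Nt5dc3 (0.993). Closest to Ltb were Cyb5, Sh3kbp1 and Golm1, each at 0.989, and closest to Osm were Tgfbr1 (0.881), Asah1 (0.854) and Prkx (0.832). Lif and Il3 had too few counts for this measure.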

How the data were processed

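RNA of 12 libraries was measured by an adapted CEL-seq protocol, which sequences transcript 3′ ends, on a NextSeq 500. The authors aligned read 2 to the mm10 transcriptome with BWA MEM, discarded reads that mapped equally well to several places, counted with MapAndGo and deposited raw counts per gene symbol; whether molecular identifiers were collapsed is not given in the sources used here.

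Counts of all symbols were tested with edgeR 4.0.16 (R 4.3.3): TMM scaling, the filterByExpr filter, quasi-likelihood F-tests and p-values adjusted by Benjamini-Hochberg across every symbol tested, called under 0.05. Only the 2 groups compared entered each fit, and all 12 libraries entered the interaction. The study used DESeq2 (here version 1.42.0), which was an alternative. Calls were counted over protein-coding genes. GENCODE M21 names, or else RefSeq symbols and synonyms, matched 14285 of 14323 symbols. Standard errors are the fold change over the root of F. Mitochondrial genes took 9.61% to 16.5% of counts. Depth and its floors are given with the results. Other alternatives were size factors, filters, a mouse block and leaving out each library.

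Groups came from the labels. Libraries of a number came from the same mouse, as the labels say. Their deviations from group means correlated over genes with a mean r of 0.03 to 0.09, and single values ran from -0.005 to 0.105. With 3 libraries centred on their group mean, the r between mice (-0.04 to -0.01) is largely fixed by that value and adds no evidence of pairing. No library was a copy of another (chi-square per degree of freedom of 3.82 and above within groups). On simulated counts, edgeR recovered 83% of 200 genes changed 2-fold between stimulated groups, 68% between unstimulated groups and 58% for the interaction. The members and gene lists were chosen with earlier results of these data known. Named were all members, of each list at most the 3 largest calls with anti-LAIR-1 in stimulated cells, the 3 genes most like each member, and chromosome neighbours. A gene that this rule would name is not reported here.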

Additional observations from a re-analysis of the deposited data

Results flagged for a closer look

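Lta drew attention because its response to anti-LAIR-1 pointed in opposite directions with and without anti-CD3. It was lower with anti-LAIR-1 in 3 of 3 mice given anti-CD3 (-0.26, -0.67 and -0.88 on the log2 scale) and higher in 3 of 3 mice without it (0.39, 0.87 and 1.04). The latter rests on 16 counts with isotype against 46 with anti-LAIR-1, from libraries of unequal depth, and is 1.90-fold in mean CPM. The interaction was -1.49 (SE 0.45) and did not pass (edgeR adjusted p = 0.0883, and 0.0315 to 0.241 over 16 alternatives, of which 1 passed). Groups of 3 libraries were not tested for outlying samples.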

How the results depend on the processing

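With a minimum of 10 counts in every library, 1 member was called for anti-CD3 against unstimulated with isotype in place of 5, since members at or near 0 in unstimulated cells cannot be tested under that filter. With no filter on low counts, 1 member passed the interaction in place of 0, which was Lta. With the mouse as a replicate block, 5, 4, 3, 0 and 0 members were called for anti-CD3 with isotype, anti-CD3 with anti-LAIR-1, anti-LAIR-1 in stimulated cells, anti-LAIR-1 in unstimulated cells and the interaction; the block changed no call of a member.

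The change of Ifng with anti-LAIR-1 in stimulated cells passed in 12 of 12 alternatives (-1.61 to -1.27) and that of Lif in the 10 that could be fitted (-3.14 to -2.25, edgeR adjusted p up to 0.0225). That of Lta passed in 10 of 12 and that of Tnf in 1 of 12. Ltb and Osm passed in none of 12 and 10. Over all genes, the 496 calls with anti-LAIR-1 in stimulated cells became 287, 309 and 328 without the isotype library of mouse 2 and the anti-LAIR-1 libraries of mice 2 and 3, and the 186 of the interaction became 100 to 123 without 6 single libraries. In unstimulated cells 0 calls became 3 with no filter and 1 without the anti-LAIR-1 library of mouse 2. No member reversed direction among its alternatives.

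Lif, Osm and Il3 are limited by depth: Lif and Il3 were under 3 counts in some stimulated libraries. Differences of Il3 were tested only in alternatives without the filter on low counts, where none passed. With 3 mice for each group, edgeR p-values weigh a difference against the spread between libraries, estimated with information shared across genes. All results cover these 3 mice only.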
